A study of Homo sapiens with 8 samples.

Results

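TNFRSF12A and 9 further receptors of the tumour necrosis factor (TNF) receptor superfamily were examined by RNA sequencing in LP-1 cells, an established multiple myeloma line. The 10 members, TNFRSF12A, TNFRSF1A, TNFRSF1B, TNFRSF10A, TNFRSF10B, TNFRSF21, TNFRSF8, FAS, CD40 and LTBR, were taken by gene symbol from a table of 63129 genes. LP-1 cells received 2.5 µM SGC-CBP30, which binds the bromodomains of the acetyltransferases CBP and EP300, or 250 nM CPI203, which binds the bromodomains of the BET proteins, or the vehicle DMSO, for 6 h in every case. Each of the 4 groups held 2 libraries labelled as replicates, and each compound had a DMSO pair of its own, matched here by the series of library names that it shares with the treated pair. The 8 libraries come from 1 cell line at 1 dose and 1 time point per compound, and the library names form 2 series, 1 for each compound with its DMSO pair. These series are called experiments here, although the labels do not say whether they were run apart, and compound and series cannot be told apart. The members were chosen by values of these same contrasts, the changes in RPKM with each compound, TNFRSF12A in particular for its rise with both. The changes of the members with the compounds are therefore a description and carry no p-value.

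Receptors of this family are membrane proteins with cysteine-rich extracellular domains that are brought together by trimeric ligands. One branch carries a cytoplasmic death domain that binds adaptors such as FADD or TRADD, and some of its receptors can activate caspase-8. FAS, TNFRSF1A (TNF receptor 1), TNFRSF10A and TNFRSF10B (the death receptors for TRAIL) and TNFRSF21 (death receptor 6) are of this kind. The other branch has no death domain and binds TRAF proteins, which connect it to the NF-kappaB and JNK pathways. TNFRSF12A (Fn14, the receptor for TWEAK), TNFRSF1B (TNF receptor 2), TNFRSF8 (CD30), CD40 and LTBR (lymphotoxin beta receptor) belong to the second branch. In plasma cells and myeloma, receptors of the family without a death domain, such as TNFRSF17 and TNFRSF13B, bind the survival factors BAFF and APRIL.

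To show the sequence in front of the members that differed in response, the 250 bases before the RefSeq start site are given for FAS and TNFRSF1B, which were lower with each compound, for TNFRSF21, whose lower level with CPI203 was the most pronounced, and for TNFRSF1A, which differed little with either. Promoter windows of RefSeq, build GRCh38.p14, were used for 6 of the 10 members. Capitals mark matches on either strand to the letters of 6 motifs. The AP-1 letters searched for were TGANTCA. A CRE was read as TGACGTCA and a GC box as GGGCGG. The E-box letters were CACGTG. For the TATA box the letters were TATAAA, and for the core of a kappaB site GGACTTTCC. The FAS window lies at chr10:88990548-88990797 on the plus strand, before the start that lies farthest upstream of the 3 in the table. That of TNFRSF1B lies at chr1:12166741-12166990 on the plus strand. The window of TNFRSF21 is chr6:47309906-47310155 and that of TNFRSF1A is chr12:6342077-6342326, both on the minus strand.
FAS: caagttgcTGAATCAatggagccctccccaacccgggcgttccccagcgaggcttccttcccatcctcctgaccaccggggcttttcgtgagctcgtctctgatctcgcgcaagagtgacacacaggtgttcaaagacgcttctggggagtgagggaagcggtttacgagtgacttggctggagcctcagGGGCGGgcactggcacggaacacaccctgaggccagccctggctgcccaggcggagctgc
TNFRSF1B: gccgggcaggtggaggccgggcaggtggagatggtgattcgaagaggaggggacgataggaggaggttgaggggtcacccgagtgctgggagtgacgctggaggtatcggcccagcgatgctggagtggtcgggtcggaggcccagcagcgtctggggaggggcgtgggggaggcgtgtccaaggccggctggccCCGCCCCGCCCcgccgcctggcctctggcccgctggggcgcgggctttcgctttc
TNFRSF21: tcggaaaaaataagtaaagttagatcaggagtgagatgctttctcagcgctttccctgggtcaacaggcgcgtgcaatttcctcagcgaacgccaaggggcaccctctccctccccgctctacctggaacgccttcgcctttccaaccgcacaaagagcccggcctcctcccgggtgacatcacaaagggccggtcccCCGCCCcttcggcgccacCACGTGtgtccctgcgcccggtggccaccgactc
TNFRSF1A: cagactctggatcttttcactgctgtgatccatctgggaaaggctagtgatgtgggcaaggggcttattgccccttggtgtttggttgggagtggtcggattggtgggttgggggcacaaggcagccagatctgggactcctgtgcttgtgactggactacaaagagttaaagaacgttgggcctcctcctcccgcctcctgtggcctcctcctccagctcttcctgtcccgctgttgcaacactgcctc
The FAS window shown held 1 match to the AP-1 letters, 242 to 236 bases before the start, and 1 GC box. The windows before the other FAS starts held no match to the AP-1 letters, and 1 and 2 GC boxes. Of all 35116 windows of this length, 6.57% held the AP-1 letters and 42.6% a GC box. TNFRSF1B held 2 GC boxes that share 1 base, and TNFRSF21 held 1 GC box and 1 E-box, a motif found in 6.34% of the windows. No listed letters occurred in the TNFRSF1A window, and no match to the CRE, TATA box or kappaB core letters was found in these 4 windows. Among all windows, 1.65%, 10.7% and 0.333% held these last 3 motifs. The matches of different motifs did not overlap.

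Expression was given as RPKM, read counts scaled to the length of the gene and to the mapped reads of the library, so that levels can be compared between genes. From the spacing of the lowest values the libraries held an estimated 26050000 to 50150000 reads, with 60.9% to 72.7% of those values within 0.1 of a whole read. The highest estimates were those of the SGC-CBP30 libraries. Of the 8 plasma cell markers examined, none was at 0 in any library, and their summed level was 828 to 1332 RPKM, lower in each treated pair than in its DMSO pair. Single markers went against the sum: SDC1 was higher in both SGC-CBP30 libraries and PRDM1 in both CPI203 libraries than in their DMSO pairs. In bulk RNA, fewer cells of a type and less RNA per cell cannot be told apart. Markers of epithelial cells summed to at most 0.0167 RPKM, those of fibroblasts to 0.221, those of myeloid cells to 0.321 and those of B cells to 2.31 RPKM. The summed level of 4 T cell markers was 0.0338 to 0.0890 RPKM in the 4 libraries run for SGC-CBP30 and 0.830 to 1.13 RPKM in the 4 run for CPI203.

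TNFRSF12A, whose product is among the smallest receptors of the family, was scarcely expressed in untreated LP-1 cells and was several-fold higher after 6 h with each compound. The gene lies at chr16:3068445-3072384 in the gene table of the authors (build hg19). Its level was 0.231 and 0.455 RPKM in the DMSO pair run beside SGC-CBP30 and 3.20 and 2.41 RPKM with SGC-CBP30. In the CPI203 experiment it was 0.830 and 1.13 RPKM with DMSO and 6.69 and 6.94 RPKM with CPI203. All 4 treated libraries lay above all 4 DMSO libraries, and the CPI203 libraries lay above the SGC-CBP30 libraries.

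The ratio of the mean levels was 8.16 with SGC-CBP30 and 6.97 with CPI203. On the scale of log2(RPKM + 0.1), the difference was 2.74 ± 0.26 (SE, n = 2 against 2) with SGC-CBP30 and 2.70 ± 0.26 with CPI203, a difference between the compounds of 0.05 ± 0.37. Of the 14732 genes whose mean over all libraries reached 1 RPKM, 5 had a larger increase with SGC-CBP30 and 37 with CPI203. These values rest on few reads: an estimated 7.96 and 15.5 reads per kilobase in the DMSO libraries beside SGC-CBP30, against 160 and 113 with the compound, and 23.9 and 29.9 with DMSO against 174 and 207 with CPI203. TNFRSF12A passed the minimum level only through its treated libraries, and a pseudocount of 1 lowered the difference to 1.498 with SGC-CBP30 and 1.99 with CPI203. The size of the SGC-CBP30 difference ranged from 2.37 to 3.12 when single libraries were left out.

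**Figure D1:**
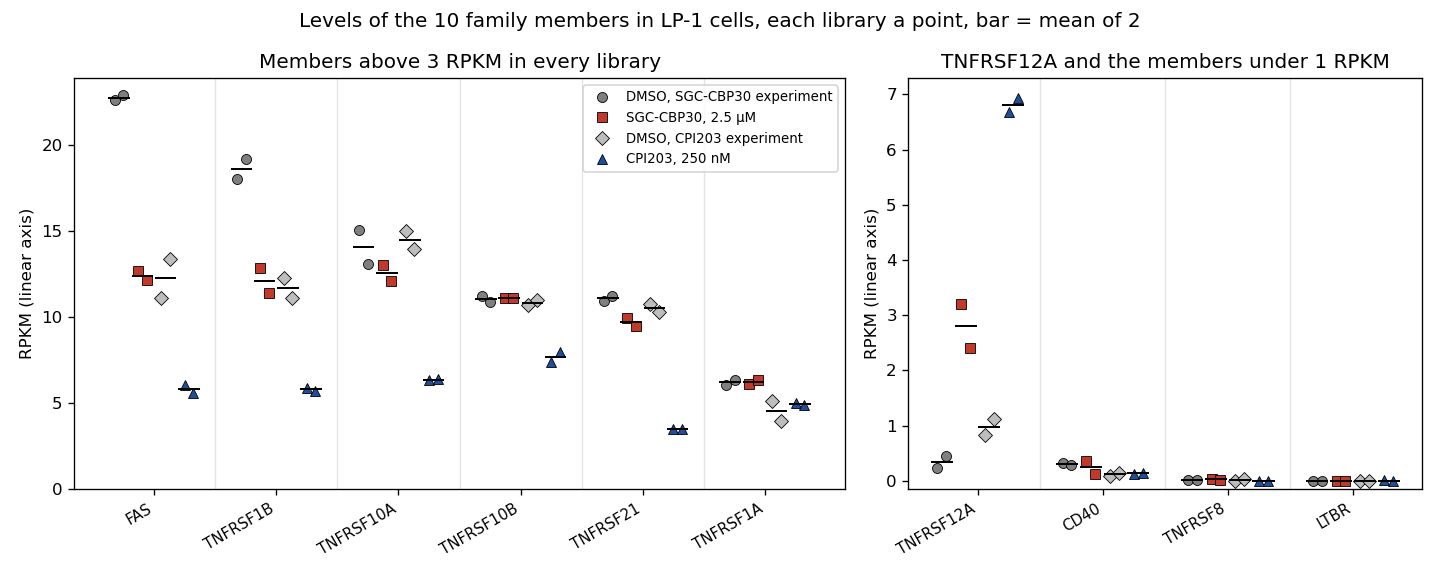
RPKM on linear axes of the 10 members, with a point for each library and a bar at the mean of the 2 libraries of a group. TNFRSF12A was at 0.231 to 1.13 RPKM with DMSO, 2.41 to 3.20 with SGC-CBP30 and 6.69 to 6.94 with CPI203; FAS and TNFRSF1B in SGC-CBP30 libraries lay where they lay in the DMSO pair run beside CPI203.

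FAS, the receptor for FAS ligand and the member with the highest level in the DMSO pair beside SGC-CBP30, was lower with each compound than in its own DMSO libraries. Its level was 22.6 and 22.9 RPKM with DMSO and 12.7 and 12.2 with SGC-CBP30, and 11.1 and 13.4 with DMSO and 6.06 and 5.59 with CPI203. Within each experiment the groups did not overlap. The log2 difference was -0.87 ± 0.09 with SGC-CBP30 and -1.06 ± 0.09 with CPI203 (SE, n = 2 against 2). The SGC-CBP30 libraries fell within the range of the DMSO pair run beside CPI203. With all 4 DMSO libraries as controls the difference with SGC-CBP30 was -0.42 ± 0.29.

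TNFRSF1B, which binds TNF and lacks a death domain, followed a like order. It was at 18.0 and 19.2 RPKM with DMSO and 12.9 and 11.4 with SGC-CBP30, and at 12.3 and 11.1 with DMSO and 5.88 and 5.74 with CPI203. Treated and DMSO libraries of an experiment did not overlap, but the SGC-CBP30 libraries overlapped with the DMSO pair run beside CPI203. The log2 difference was -0.62 ± 0.08 for SGC-CBP30 and -1.0 ± 0.08 for CPI203. The SGC-CBP30 value was -0.29 ± 0.22 with all 4 DMSO libraries as controls.

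TNFRSF21, a death domain receptor best known from neurons, separated the compounds. It was at 10.96 and 11.3 RPKM with DMSO and 9.97 and 9.49 with SGC-CBP30, against 10.8 and 10.3 with DMSO and 3.51 and 3.51 with CPI203. The CPI203 level was 3.01-fold below its DMSO level and the SGC-CBP30 level 1.14-fold. Both pairs of treated libraries lay below their DMSO pairs, and the log2 difference was -0.19 ± 0.07 with SGC-CBP30 and -1.56 ± 0.07 with CPI203.

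TNFRSF10A and TNFRSF10B, which lie in a cluster on chromosome 8 and encode the TRAIL receptors able to signal death, were also lower with CPI203. TNFRSF10A was at 15.1 and 13.1 RPKM with DMSO and 13.0 and 12.1 with SGC-CBP30, and at 15.01 and 13.95 with DMSO and 6.36 and 6.40 with CPI203. With SGC-CBP30 the higher library lay only just under the lower DMSO library, with a log2 difference of -0.16 ± 0.08, whereas with CPI203 the difference was -1.17 ± 0.08. TNFRSF10B was at 11.2 and 10.9 RPKM with DMSO and 11.1 and 11.1 with SGC-CBP30, and at 10.7 and 10.98 with DMSO and 7.38 and 7.99 with CPI203. The SGC-CBP30 libraries of TNFRSF10B lay between its DMSO libraries, and its log2 difference was 0.01 ± 0.07 with SGC-CBP30 and -0.49 ± 0.07 with CPI203. The genes of this cluster are similar in sequence, and how reads shared among them were assigned is not given in the sources used here, so that the split between them is uncertain.

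TNFRSF1A, the main death domain receptor for TNF, differed little with either compound. Its level was 6.07 and 6.35 RPKM with DMSO and 6.12 and 6.35 with SGC-CBP30, and 5.12 and 3.98 with DMSO and 5.03 and 4.87 with CPI203. Treated and DMSO libraries overlapped in both experiments. The log2 difference was 0.01 ± 0.12 with SGC-CBP30 and 0.13 ± 0.12 with CPI203. With the library medians made equal, the SGC-CBP30 value was -0.07, on the other side of 0.

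The remaining 3 members had a mean under 1 RPKM and entered no fit. CD40, a costimulatory receptor of B cells and myeloid cells, was at 0.324 and 0.283 RPKM with DMSO and 0.360 and 0.127 with SGC-CBP30, and at 0.0912 and 0.148 with DMSO and 0.133 and 0.138 with CPI203, so that treated and DMSO libraries overlapped. TNFRSF8, an activation marker of lymphocytes, reached at most 0.0312 RPKM in any library and was at 0 in both CPI203 libraries. With SGC-CBP30 it was at 0.0282 and 0.0237 RPKM against 0.0137 and 0.0138 with DMSO. These values stand for an estimated 1.42 and 1.11 reads per kilobase against 0.471 and 0.472. LTBR, which is usually a receptor of stromal and myeloid cells, was above 0 in 1 library only, at 0.0105 RPKM with CPI203. A change of these 3 genes was not tested.

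Ordered by mean level with DMSO, FAS and TNFRSF1B stood above the other members in the SGC-CBP30 experiment, at 22.8 ± 0.2 and 18.6 ± 0.8 RPKM (SD, n = 2), followed by TNFRSF10A (14.1 ± 1.4), TNFRSF21 (11.1 ± 0.2), TNFRSF10B (11.1 ± 0.3) and TNFRSF1A (6.21 ± 0.20). TNFRSF21 and TNFRSF10B did not differ beyond their spread. In the DMSO pair run beside CPI203 TNFRSF10A was first at 14.5 ± 0.8 RPKM, and FAS (12.3 ± 1.6) and TNFRSF1B (11.7 ± 0.8) overlapped. With SGC-CBP30, TNFRSF10A (12.6 ± 0.7), FAS (12.4 ± 0.4) and TNFRSF1B (12.1 ± 1.0) overlapped, and TNFRSF12A was the lowest of the 7 members in the fit at 2.80 ± 0.56 RPKM. With CPI203 the order changed again, with TNFRSF10B highest at 7.68 ± 0.43 RPKM, then TNFRSF12A at 6.82 ± 0.18, TNFRSF10A at 6.38 ± 0.03, and TNFRSF21 the lowest of the 7 at 3.51 RPKM in each library. TNFRSF12A was thus the lowest of these 7 genes in both DMSO groups and second in the CPI203 libraries.

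By the threshold used for all genes, an adjusted p under 0.05 and at least 1.5-fold, 1 of the 7 members in the fit lay higher and 2 lower with SGC-CBP30, where 3.47% and 3.79% of all genes were called. With CPI203, 1 lay higher and 4 lower, beside 13.4% and 14.4% of all genes. As these contrasts chose the members, nothing is read from these counts. TNFRSF10B, at 1.41-fold below DMSO with CPI203, was the nearest outside the fold threshold, and TNFRSF1B, at 1.54-fold below DMSO with SGC-CBP30, the nearest inside it.

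**Figure D2:**
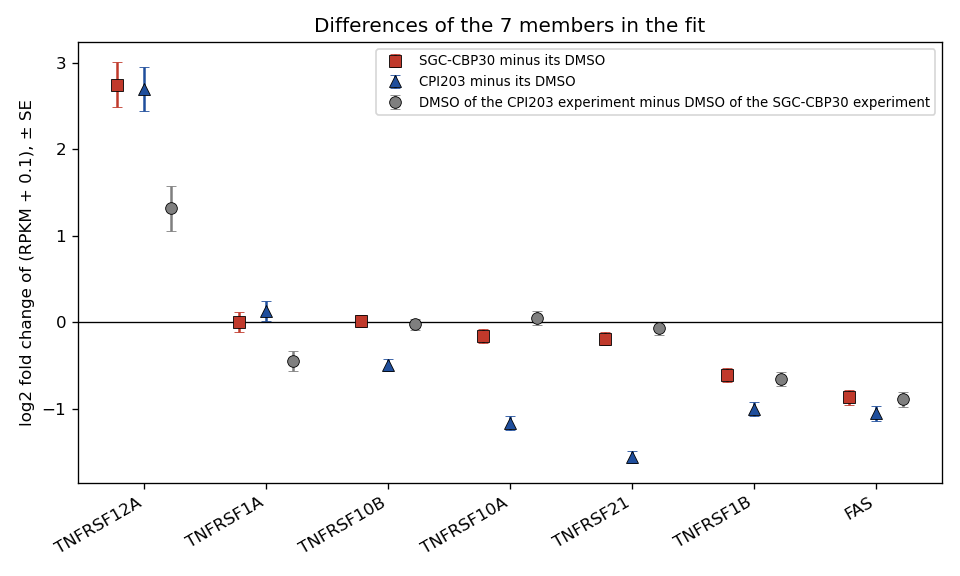
Log2 fold change of (RPKM + 0.1) with its SE for the 7 members whose mean reached 1 RPKM, for each compound against its own DMSO pair and between the DMSO pairs. TNFRSF12A stands at 2.74 and 2.70 with the compounds and 1.32 between the DMSO pairs, while FAS and TNFRSF1B lie below 0 in all 3 comparisons.

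The DMSO pairs of the experiments were compared as a measure of how far the members vary in untreated LP-1 cells. This comparison was not used to choose the members, but shares the DMSO libraries with the contrasts that were. A member chosen for a change from a DMSO pair is favoured to stand apart in that pair. The differences of the members here are therefore a description and carry no p-value. TNFRSF12A lay higher in the DMSO pair run beside CPI203, by 1.32 ± 0.26 on the log2 scale. It entered the fit only through its treated libraries, and with a pseudocount of 1 the difference was 0.56. FAS was lower in the DMSO pair run beside CPI203 by -0.89 ± 0.09 and TNFRSF1B by -0.66 ± 0.08. For all 3 genes the pairs did not overlap. Of all genes tested, 7.84% passed the threshold in this comparison, and no count of members is set against that share. TNFRSF1A was lower by -0.45 ± 0.12, which is under 1.5-fold, and by -0.63 without the first DMSO replicate of the CPI203 experiment. TNFRSF10A, TNFRSF10B and TNFRSF21 differed by -0.07 to 0.04. What sets the DMSO pairs apart, beyond the series of library names, is not given in the sources used here. T cell markers summed to 0.0364 and 0.0688 RPKM in the first DMSO pair and to 0.928 and 1.02 RPKM in the second, and their part in these differences was not tested.

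The 5 genes whose pattern over the 8 libraries was closest to TNFRSF12A, by the root mean square difference of log2(RPKM + 0.1) after subtraction of the mean of the own DMSO pair, were SERPINB8 (0.537), CRIP2 (0.617), ANXA1 (0.644), BAIAP3 (0.660) and CSRP2 (0.770). SERPINB8, a serine protease inhibitor, was at 0.759 and 1.13 RPKM with DMSO and 3.78 and 3.31 with SGC-CBP30, and at 1.64 and 1.14 with DMSO and 7.56 and 7.92 with CPI203. CRIP2 and CSRP2 encode LIM domain proteins, and ANXA1 encodes annexin A1, a phospholipid-binding protein. Log2 differences for the 5 genes were 1.29 to 2.25 with SGC-CBP30 and 1.58 to 2.41 with CPI203. All were smaller than those of TNFRSF12A, but that gene was chosen for its rise, so nothing is read from this order.

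To place the members in their pathway, 75 further genes in 5 lists were examined. They covered the other receptors of the family, the ligands, the adaptors and effectors of death signalling, and the TRAF and ubiquitin adaptors. The last list held the kinases next to the receptors with their adaptors. Of the 75 genes, 46 reached a mean of 1 RPKM and entered the test. With SGC-CBP30, 1 rose and 5 fell, where 3.47% of all genes tested were called higher and 3.79% lower. With CPI203, 8 rose and 13 fell, beside 13.4% higher and 14.4% lower among all genes. The calls in both directions were 13.0% and 45.7% of the 46 genes. The lists were chosen with earlier results of these data known, so no excess over all genes is read from these shares. The median log2 difference of the 46 genes was -0.06 for SGC-CBP30 and -0.16 for CPI203, against 0.07 and -0.015 for all genes tested. A difference between the responses to SGC-CBP30 and CPI203 had an adjusted p under 0.05 in 29 of these 46 genes, where 50.3% of all genes did.

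**Figure D3:**
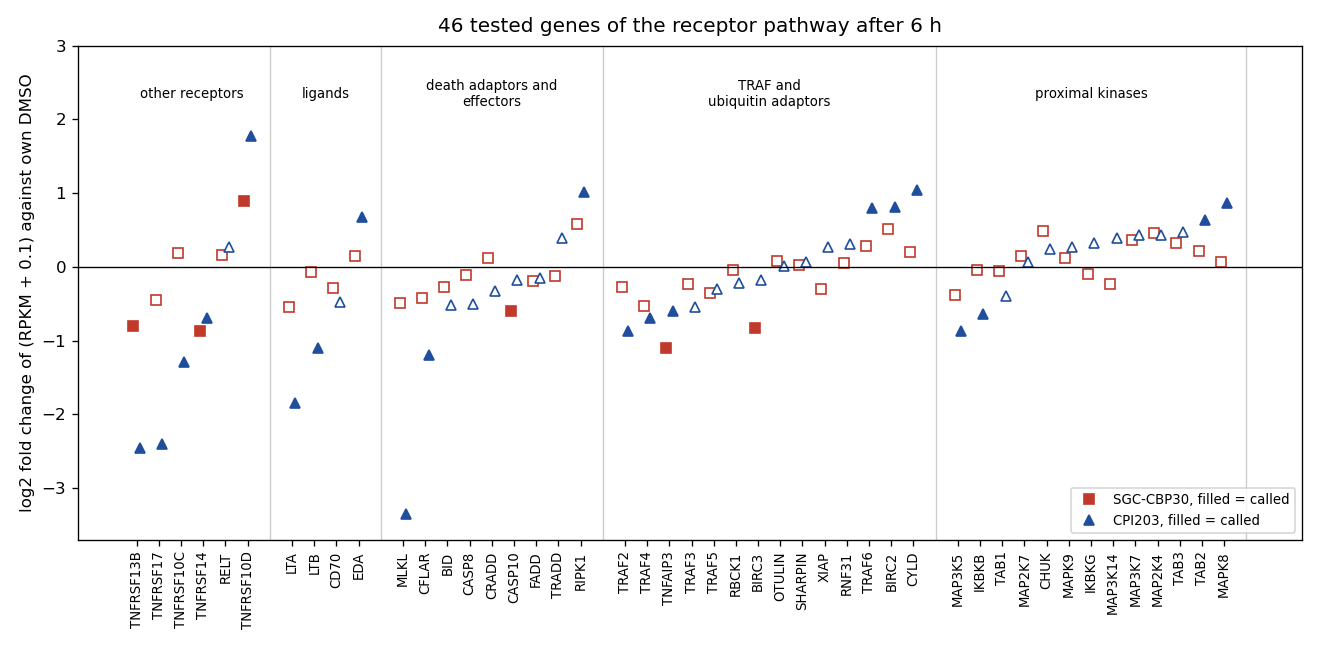
Log2 fold change of (RPKM + 0.1) against the own DMSO pair for the 46 tested pathway genes in 5 lists, ordered within a list by the CPI203 value; filled symbols passed an adjusted p of 0.05 and 1.5-fold. MLKL, TNFRSF13B and TNFRSF17 show the largest decreases with CPI203, at -3.36, -2.46 and -2.40, and TNFRSF10D the largest increase with each compound.

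Among the other receptors, 6 of 19 were tested. With SGC-CBP30 1 rose and 2 fell, and with CPI203 1 rose and 4 fell, with medians of -0.14 and -0.996. Among all genes 3.47% rose and 3.79% fell with SGC-CBP30, and 13.4% rose and 14.4% fell with CPI203. TNFRSF13B (TACI) and TNFRSF17 (BCMA), the plasma cell receptors for BAFF and APRIL, had the highest levels of the family. TNFRSF13B was at 144 and 150 RPKM with DMSO and 89.1 and 79.9 with SGC-CBP30, and at 137 and 134 with DMSO and 23.3 and 25.8 with CPI203. Its log2 difference was -0.80 ± 0.06 for SGC-CBP30 (adjusted p = 1.57e-05) and -2.46 ± 0.06 for CPI203 (adjusted p = 2.8e-09). TNFRSF17 was at 116 and 126 RPKM with DMSO and 87.2 and 89.8 with SGC-CBP30, and at 139 and 145 with DMSO and 27.3 and 26.6 with CPI203. The CPI203 difference of -2.40 was called and the SGC-CBP30 difference of -0.45 was short of 1.5-fold.

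TNFRSF14 (HVEM), the receptor for LIGHT, fell with each compound, by 0.86 and 0.70 on the log2 scale (adjusted p = 0.00318 and 0.00447). Its level was 3.99 and 3.07 RPKM with DMSO and 1.90 and 1.86 with SGC-CBP30, and 1.77 and 2.01 with DMSO and 1.05 and 1.21 with CPI203. Here too the SGC-CBP30 libraries lay within the range of the DMSO pair run beside CPI203. With all 4 DMSO libraries as controls the SGC-CBP30 difference was -0.43 with an adjusted p of 0.348, and the call was lost. The CPI203 call was lost in 2 of 16 alternatives, where the smallest difference was -0.44.

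The decoy receptors for TRAIL, TNFRSF10C and TNFRSF10D, which lack a working death domain, moved in opposite directions with CPI203, while both lay above DMSO with SGC-CBP30. TNFRSF10D was at 1.57 and 1.46 RPKM with DMSO and 2.99 and 2.82 with SGC-CBP30, and at 3.09 and 3.10 with DMSO and 10.6 and 11.2 with CPI203. Its log2 difference was 0.90 ± 0.10 for SGC-CBP30 (adjusted p = 0.000189) and 1.78 ± 0.10 for CPI203 (adjusted p = 4.01e-07). With all 4 DMSO libraries as controls the first of these was 0.40 with an adjusted p of 0.406. TNFRSF10C was at 11.6 and 12.3 RPKM with DMSO and 13.0 and 14.1 with SGC-CBP30, and at 14.9 and 14.2 with DMSO and 5.74 and 5.99 with CPI203. It fell by 1.30 ± 0.07 on the log2 scale with CPI203 (adjusted p = 2.74e-07), and its SGC-CBP30 difference of 0.18 missed the test.

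Summed over TNFRSF10A, TNFRSF10B, TNFRSF10C and TNFRSF10D, the level was 39.5 and 37.7 RPKM with DMSO and 40.2 and 40.2 with SGC-CBP30, and 43.7 and 42.3 with DMSO and 30.1 and 31.5 with CPI203. If each shared read was counted once, the sum depends on the split among the 4 genes only through their lengths. Whether shared reads were counted in this way is not given in the sources used here. TNFRSF10D went from the lowest of the 4 in every DMSO and SGC-CBP30 library to the highest in both CPI203 libraries.

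**Figure D4:**
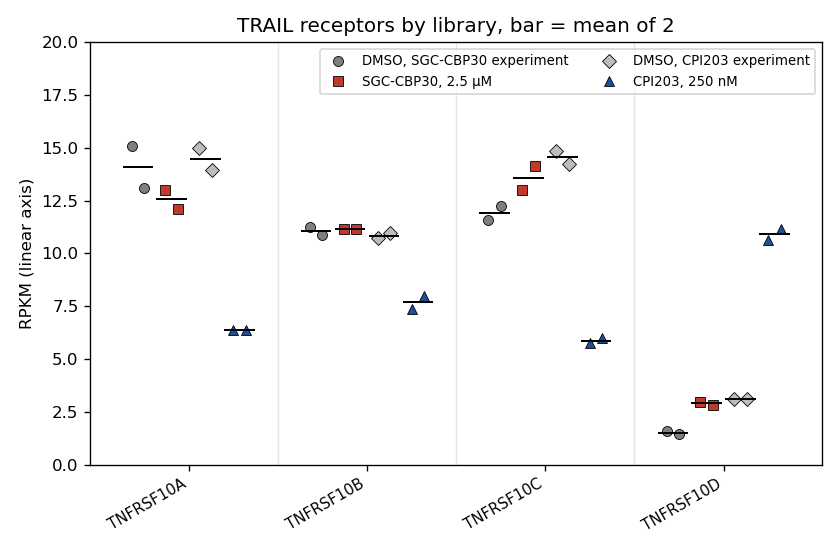
RPKM on a linear axis of the 4 TRAIL receptor genes, with a point for each library and a bar at the mean of 2. In the CPI203 libraries TNFRSF10D was at 10.6 and 11.2 RPKM, above the other 3 genes, which lay between 5.74 and 7.99 RPKM.

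Of 18 ligand genes, 4 were tested. None was called with SGC-CBP30 in limma, although LTA and CD70 had an adjusted p under 0.05 and 2 had an unadjusted p under 0.05. With CPI203 1 rose and 2 fell, where 13.4% of all genes rose and 14.4% fell. LTA, lymphotoxin alpha, which binds TNFRSF1A and TNFRSF1B, was at 11.98 and 11.5 RPKM with DMSO and 8.24 and 7.85 with SGC-CBP30, and at 11.4 and 10.0 with DMSO and 3.05 and 2.78 with CPI203. It fell by 1.84 on the log2 scale with CPI203 (adjusted p = 1.42e-07). Its SGC-CBP30 difference was -0.54 (adjusted p = 0.00145), and passed 1.5-fold at -0.61 with the library medians made equal. LTB, the partner of LTA in the ligand of LTBR, fell by 1.10 with CPI203 (adjusted p = 0.00248), from 0.909 and 1.36 RPKM to 0.405 and 0.539. With SGC-CBP30 the LTB difference was -0.06, at 2.782 and 2.135 RPKM against 2.348 and 2.777 with DMSO. Between the DMSO pairs LTB differed by -1.13, lower in the pair run beside CPI203 (adjusted p = 0.00459, limma). The CPI203 call of LTB was lost in 1 of 16 alternatives. EDA, ectodysplasin, rose by 0.67 with CPI203 (adjusted p = 0.00732), from 1.29 and 1.73 to 2.54 and 2.36 RPKM. Without the first DMSO replicate of the CPI203 experiment its difference was 0.47 and was not called (adjusted p = 0.0567).

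TNFSF12, which encodes TWEAK, the ligand of TNFRSF12A, was listed at no more than 0.0378 RPKM in any library. Its locus overlaps with that of TNFSF13, whose level was 0.358 to 0.909 RPKM, and the assignment of reads between them is uncertain. TNFSF10 (TRAIL) was at 0.443 to 0.964 RPKM, with overlap of the groups in both experiments. TNF was at 0.157 to 0.392 RPKM in the 4 libraries of the CPI203 experiment and at no more than 0.0175 RPKM in those of the SGC-CBP30 experiment. CD40LG was at 0.335 to 0.628 RPKM in the former and at 0 in the latter. FASLG (0.0208 to 0.128 RPKM), TNFSF8 (0.0176 to 0.0544 RPKM) and TNFSF14 (0.0614 to 0.138 RPKM) were likewise above 0 in the 4 libraries of the CPI203 experiment and at 0 in the other 4.

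The T cell markers showed the same division: CD3D was at 0.375 to 0.499 RPKM in the CPI203 experiment and at 0 in the SGC-CBP30 experiment, and CD2 was at 0.236 to 0.568 against 0.0124 to 0.0663 RPKM. CD3E was at 0.0805 to 0.180 RPKM against at most 0.0226, while CD8A was at 0 in all 4 libraries of the CPI203 experiment. The part of these transcripts in the ligand levels was not tested. The DMSO and CPI203 libraries overlapped for TNF, CD40LG, FASLG and TNFSF8, and for TNFSF14 both CPI203 libraries (0.138 and 0.110 RPKM) lay above both DMSO libraries (0.0987 and 0.0614 RPKM).

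**Figure D5:**
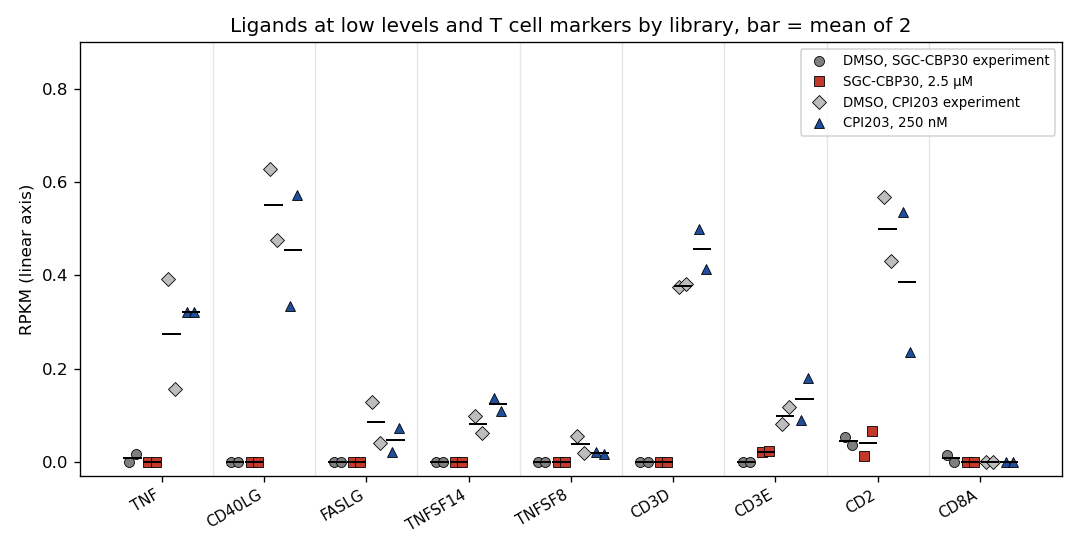
RPKM on a linear axis of 5 ligand genes and 4 T cell marker genes, with a point for each library and a bar at the mean of 2. CD40LG and CD3D were at 0 in all 4 libraries of the SGC-CBP30 experiment and at 0.335 to 0.628 RPKM and 0.375 to 0.499 RPKM in those of the CPI203 experiment.

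Among the adaptors and effectors of death signalling, 9 of 10 were tested. With SGC-CBP30 1 fell, and with CPI203 1 rose and 2 fell, with medians of -0.19 and -0.32. These are 11.1% and 33.3% of the 9 genes, near the shares of all genes (3.47% higher and 3.79% lower with SGC-CBP30, 13.4% and 14.4% with CPI203). FADD, the adaptor of FAS and the TRAIL receptors, was at 17.4 to 20.7 RPKM in 7 libraries and 16.2 RPKM in the first CPI203 library, and passed the test with neither compound (-0.19 and -0.15, adjusted p = 0.0587 and 0.0993). CASP8, the caspase that FADD recruits, was at 41.5 and 40.0 RPKM with DMSO and 38.0 and 37.6 with SGC-CBP30, and at 45.0 and 45.0 with DMSO and 32.2 and 31.2 with CPI203. The CPI203 difference of -0.50 (adjusted p = 4.13e-06) was under 1.5-fold. CFLAR, which encodes the caspase-8 inhibitor FLIP, was at 58.0 and 61.4 RPKM with DMSO and 44.3 and 44.5 with SGC-CBP30, and at 67.5 and 72.4 with DMSO and 32.8 and 28.6 with CPI203. It fell by 1.19 ± 0.07 on the log2 scale with CPI203 (adjusted p = 2.95e-07), and its SGC-CBP30 difference of -0.42 (adjusted p = 0.000986) was under 1.5-fold.

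MLKL, the membrane effector of necroptosis, showed the largest decrease of all 46 genes. It was at 14.5 and 14.4 RPKM with DMSO and 10.1 and 10.5 with SGC-CBP30, and at 12.7 and 13.4 with DMSO and 1.23 and 1.13 with CPI203. The difference was -3.36 ± 0.08 with CPI203 (adjusted p = 2.46e-09) and -0.48 ± 0.08 with SGC-CBP30. RIPK3, the kinase that activates MLKL, was at 0 RPKM in every library. RIPK1, a kinase that binds TNFRSF1A through TRADD, rose by 1.01 with CPI203 (adjusted p = 1.9e-06), from 6.25 and 6.05 to 12.7 and 12.3 RPKM. With SGC-CBP30 RIPK1 was at 8.37 and 9.14 RPKM against 5.76 and 5.91 with DMSO, and its difference of 0.58 (adjusted p = 0.000378) was just under 1.5-fold, but reached 0.64 without the first SGC-CBP30 replicate and 0.59 without the second DMSO replicate, where it was called. CASP10, a caspase close to CASP8, fell with SGC-CBP30 from 19.9 and 20.9 to 13.9 and 13.0 RPKM (-0.60, adjusted p = 8.45e-05). That call sat at the 1.5-fold threshold, and was lost at -0.55 without the second SGC-CBP30 replicate and at -0.57 without the second DMSO replicate or with a pseudocount of 1.

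Of the TRAF and ubiquitin adaptors, 14 of 15 were tested. With SGC-CBP30 2 fell, and with CPI203 3 rose and 3 fell, with medians of -0.13 and -0.08. The calls were 14.3% and 42.9% of the 14 genes, beside all-gene shares of 3.47% higher and 3.79% lower with SGC-CBP30 and 13.4% and 14.4% with CPI203. TNFAIP3 (A20), a ubiquitin-editing inhibitor of NF-kappaB signalling, fell with each compound. It was at 53.8 and 55.4 RPKM with DMSO and 26.0 and 25.0 with SGC-CBP30, and at 41.8 and 43.3 with DMSO and 27.8 and 28.4 with CPI203. Its difference was -1.10 ± 0.04 with SGC-CBP30 (adjusted p = 3.72e-07) and -0.60 ± 0.04 with CPI203 (adjusted p = 1.9e-06). The CPI203 value was under 1.5-fold at -0.57 without the second DMSO replicate of that experiment, at -0.58 without the first CPI203 replicate and at -0.58 with a pseudocount of 1.

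BIRC3 (cIAP2), a ubiquitin ligase bound by TRAF2, fell with SGC-CBP30 from 10.2 and 9.93 to 5.61 and 5.67 RPKM (-0.83, adjusted p = 3.01e-05). With CPI203 it was at 8.26 and 8.32 RPKM against 9.10 and 9.60 with DMSO (-0.17, adjusted p = 0.0537). BIRC2 (cIAP1), its close relative, rose with CPI203 from 18.8 and 20.2 to 35.9 and 32.4 RPKM (0.81, adjusted p = 3.8e-06). CYLD, a deubiquitinase, rose by 1.04 and TRAF6 by 0.79 with CPI203 (adjusted p = 1.49e-06 and 1.81e-05). TRAF2 fell by 0.87 and TRAF4 by 0.70 with CPI203 (adjusted p = 2.67e-06 and 1.85e-05). With SGC-CBP30 their differences were -0.27 and -0.53 (adjusted p = 0.0112 and 0.000514, limma), both under 1.5-fold. For TRAF4 the difference between the compounds was 0.17 (adjusted p = 0.201, limma). Between the DMSO pairs TRAF4 differed by -0.84, lower in the pair run beside CPI203 (adjusted p = 2.81e-05, limma). With all 4 DMSO libraries as controls its SGC-CBP30 difference was -0.11 with an adjusted p of 0.812.

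All 13 genes of the kinase list, which also holds adaptors such as TAB2, were tested. None was called with SGC-CBP30 in limma, where 7 had an adjusted p under 0.05 and 8 an unadjusted p under 0.05. With CPI203 2 rose and 2 fell, 30.8% of the list and close to the 13.4% higher and 14.4% lower among all genes. The medians were 0.12 and 0.32. MAPK8 (JNK1) rose with CPI203 from 25.7 and 28.3 to 50.8 and 47.6 RPKM (0.86, adjusted p = 1.12e-06), and TAB2, an adaptor of the kinase TAK1, rose by 0.63 (adjusted p = 1.8e-05). MAP3K5 (ASK1) fell by 0.87 on the log2 scale (adjusted p = 6.94e-05) and IKBKB, a catalytic subunit of the IkappaB kinase, fell by 0.63 (adjusted p = 5.87e-06), from 27.0 and 25.7 to 16.5 and 17.4 RPKM.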

How the data were processed

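RNA of LP-1 cells was sequenced, mapped and quantified by the authors' sequencing provider. The deposited values are RPKM per gene, made by the authors with TopHat 1.4.1, Cufflinks and hg19 per the submitters' processing notes. The annotation release and the assignment of shared reads are not given in the sources used here. Of the deposited table, 24 columns of other libraries were not used, and 27 genes that lacked a value in some library were dropped. A second file paired gene IDs with symbols and positions. Copies of listed genes on other haplotypes or patches, 21 in all, were at 0 RPKM.

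The 14732 genes whose mean over the 8 libraries reached 1 RPKM were tested on log2(RPKM + 0.1) with limma 3.58.1 in R 4.3.3, with an intensity trend, a mean per group and Benjamini-Hochberg adjustment over all genes tested; a fold change on this scale understates the change of low genes. Called means an adjusted p under 0.05 and at least 1.5-fold. The spread was estimated from all 4 groups on 4 residual degrees of freedom. The study calls the replicates biological, and p-values measure the spread between these samples. An exact permutation test of 2 against 2 cannot go below p = 0.333. Reads were estimated from the lowest values and serve as a guide to precision only, since multiples of these numbers give the same spacing. The procedure was checked on simulated data.

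The members and lists were chosen with earlier results of these data known. Named were all members; per list and compound the 3 largest called increases and decreases; 12 ligands and adaptors fixed by name; and the 5 genes most like TNFRSF12A, clone-named genes left out. Alternatives were other pseudocounts, filters, scalings, thresholds, controls, a replicate block and single libraries left out. Promoter windows came from RefSeq (GRCh38.p14), cut to the bases before the start. Python 3, pandas and matplotlib made the tables and figures.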

Additional observations from a re-analysis of the deposited data

Results flagged for a closer look

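The difference between the compounds, the log2 change with SGC-CBP30 minus that with CPI203, had an adjusted p under 0.05 in limma for 21 of the 25 named pathway genes tested. Most of these genes were named for a large change with 1 compound, so the count is not set against that of all genes. Compound, dose and experiment cannot be told apart in it.

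Positive values, from a larger decrease with CPI203, were found for MLKL (2.88, adjusted p = 1.88e-07), TNFRSF17 (1.95, adjusted p = 1.19e-07), TNFRSF13B (1.66, adjusted p = 7.9e-07), TNFRSF10C (1.48, adjusted p = 3.16e-06), LTA (1.30, adjusted p = 2.68e-05) and LTB (1.03, adjusted p = 0.028). Smaller positive values were those of CFLAR (0.77, adjusted p = 0.000108), TRAF2 (0.60, adjusted p = 0.000634), IKBKB (0.60, adjusted p = 0.000186), MAP3K5 (0.48, adjusted p = 0.0252) and CASP8 (0.40, adjusted p = 0.000434). In all libraries of the CPI203 experiment these 11 genes were lower with the compound than with DMSO.

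Negative values from a larger increase with CPI203 were found for TNFRSF10D (-0.89, adjusted p = 0.000739), CYLD (-0.83, adjusted p = 0.000144), MAPK8 (-0.79, adjusted p = 4.47e-05), TRAF6 (-0.51, adjusted p = 0.00514), RIPK1 (-0.43, adjusted p = 0.007), TAB2 (-0.42, adjusted p = 0.004) and BIRC2 (-0.29, adjusted p = 0.0258). Negative values from a larger decrease with SGC-CBP30 were those of BIRC3 (-0.66, adjusted p = 0.000422), TNFAIP3 (-0.50, adjusted p = 0.000138) and CASP10 (-0.43, adjusted p = 0.00226).

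The differences of LTB, BIRC2 and MAP3K5 missed the threshold in 7 of 15, 8 of 16 and 7 of 15 alternatives, with adjusted p from 0.0119 to 0.156, 0.00621 to 0.0977 and 0.00896 to 0.0761 over them. Among single libraries left out, LTB was lost at 0.92 and 0.85 without the first replicate of the SGC-CBP30 controls or of SGC-CBP30, and at 0.77 and 0.86 without the second replicate of the CPI203 controls or the first of CPI203. BIRC2 was lost without the first replicate of any group or the second of SGC-CBP30, at -0.30 to -0.22. MAP3K5 was lost at 0.41 to 0.50 without the first replicate of the SGC-CBP30 controls, either of SGC-CBP30, or the second of the CPI203 controls or of CPI203.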

How the results depend on the processing

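No called result changed sign under the alternatives run. The log2 difference of TNFRSF12A was 1.498 with SGC-CBP30 and 1.99 with CPI203 at a pseudocount of 1, and 2.09 and 3.35 with all 4 DMSO libraries as controls. With a minimum mean of 5 RPKM TNFRSF12A was not in the fit. With single libraries left out it ranged from 2.37 to 3.12 and from 2.49 to 2.90. At a threshold of 2-fold, 1 pathway gene was called with SGC-CBP30 and 10 with CPI203, and with no minimum fold 25 and 39. The difference between the DMSO pairs, with single libraries left out, ranged from -1.026 to -0.761 for FAS and from -0.735 to -0.592 for TNFRSF1B. For TNFRSF12A it ranged from 0.943 to 1.688.

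Replicates share numbers across groups, but samples of the same number did not deviate together: the correlation of the replicate differences was -0.172 in the SGC-CBP30 experiment and -0.0395 in the CPI203 experiment over 8298 genes. The study speaks of paired DMSO controls without saying that the replicate number marks the pair, and these values show no shared deviation by number. With a replicate block 6 and 21 pathway genes were called, TNFRSF12A stayed at 2.74 and 2.70, and 26 genes differed between the compounds. With the replicate numbers crossed in the SGC-CBP30 experiment, an alternative chosen after seeing the data, 6 were called and 29 differed.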

Other observations

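Some family genes under the minimum level differed between treated and DMSO libraries. They were chosen after their values were seen, and the adjusted p is that of the limma fit without a filter on low values, over 33312 genes. TNFSF15, which encodes the ligand TL1A, was at 0.739 and 0.618 RPKM with DMSO and 0.0537 and 0.0255 with SGC-CBP30, and at 0.383 and 0.389 with DMSO and 0.0279 and 0.0251 with CPI203. It was lower by -2.48 on the log2(RPKM + 0.1) scale with SGC-CBP30 (adjusted p = 0.00196) and by -1.94 with CPI203 (adjusted p = 0.00085), which made it the ligand gene with the largest decrease with each compound in this fit.

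TNFRSF19, a receptor without a death domain, lay on opposite sides of DMSO with the compounds. It was at 0.762 and 0.816 RPKM with DMSO and 0.454 and 0.339 with SGC-CBP30, and at 0.733 and 0.852 with DMSO and 1.60 and 1.56 with CPI203. The difference between the compounds was -1.76 (adjusted p = 0.00701). TNFSF9, the ligand of 4-1BB, was at 0.298 and 0.372 RPKM with DMSO and 0.180 and 0.103 with SGC-CBP30, and at 0.104 and 0.159 with DMSO and 0.533 and 0.588 with CPI203, with a difference of -2.38 (adjusted p = 0.00803). NGFR, the neurotrophin receptor with a death domain, was at 0 and 0.0110 RPKM with DMSO and 0.123 and 0.187 with CPI203.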
